A study of Mus musculus with 2 samples.

Results

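RNA of nuclei from mouse kidneys was sequenced, and the nuclei described here were chosen because they held transcripts of genes that mark precursors of the distal nephron. A nucleus was selected when at least 3 of the 7 markers Sim2, Sim1, Lgr5, Tfap2b, Nrcam, Skap1 and Pappa2 had a UMI (unique molecular identifier, a tag that counts an RNA molecule once). It also had to hold fewer than 2 UMIs of each of Slc12a1, Slc12a3 and Nphs1, which mark the thick ascending limb, the distal convoluted tubule and podocytes. The rule selected 819 of 18673 nuclei at E18.5, an embryonic day, and 330 of 9289 nuclei at P3, a postnatal day. These are 4.39% (exact binomial 95% interval 4.10 to 4.69) and 3.55% (3.19 to 3.95) of the nuclei within the quality limits.

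The study mapped sequenced nuclei onto sections of the developing kidney, and it gave 1 library of nuclei per age. The E18.5 kidneys carried Mycf/f and Mycnf/f alleles without Cre on a mixed background, so that both genes were floxed but not deleted. The P3 kidneys were wild type, on a C57BL/6J background per the labels, while the study's methods give a mixed background. In both libraries, kidneys of male and female mice were snap-frozen and pooled before nuclei were isolated, and the RNA was nuclear. Age, genotype, background, library and release of the counting software changed together between E18.5 and P3 and cannot be told apart. No p-value is given anywhere, because each age has 1 library and nuclei of a library are not replicates. All intervals cover counting error only.

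The nephron forms from progenitors that condense beside the tips of the ureteric bud, become a renal vesicle and then a comma-shaped and an S-shaped body. The distal part of that body is the source of the thick ascending limb, the macula densa and the distal convoluted tubule, and it joins the ureteric epithelium, which gives the collecting duct. Lhx1, Pou3f3, the Irx genes and Tfap2b are transcription factor genes known from the distal part of the early nephron, and Lgr5 encodes a receptor for R-spondins, which strengthen Wnt signalling.

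The E18.5 library held 77688411 UMIs in 21600 barcodes and the P3 library 70559806 UMIs in 12216 barcodes. The selected nuclei were deeper than the rest, with a median of 3616 UMIs against 2933 at E18.5 and 5540.5 against 4279 at P3. Depth bears on the rule itself, since a deeper nucleus shows more markers. At E18.5 the rule selected 0.855% of nuclei with 1000 to 2000 UMIs and 7.85% of those with 4000 to 6000. At P3 it selected 0.571% of the shallowest and 6.11% of those with 6000 to 10000 UMIs. The libraries shared 69 barcodes, which belonged to 5 of the selected nuclei at E18.5 and to 0 at P3.

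Genes outside the rule went with a distal identity in part. The summed level of transcription factor genes of the distal nephron was higher in the selected nuclei at both ages, with Mecom its largest part. The summed levels of markers of endothelium, stroma, podocytes and leukocytes were lower. The rule also selected nuclei with at least 3 genes of another class. At E18.5 and P3 it selected 1.86% and 1.26% of those with endothelial genes and 3.04% and 2.31% with stromal genes. With podocyte genes the shares were 3.62% and 2.67%, with proximal tubule genes 3.66% and 3.32%, and with leukocyte genes 0.446% and 0.803%. A group with genes of the ureteric epithelium limits the name. At least 3 of 12 such genes had a UMI in 80 of 819 selected nuclei at E18.5 (9.77%) and in 77 of 330 at P3 (23.3%), compared with 5.47% and 5.46% of the other nuclei. These shares were not taken at equal depth, and the selected nuclei were deeper. Whether the nuclei of that group are ureteric or of the connecting tubule was not tested. The nuclei are therefore called the selected nuclei below, and the other nuclei within the limits are called the other nuclei.

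Levels are given in CPM, the UMIs of a gene per 1000000 UMIs summed over the nuclei of a set, and only the same gene is compared between sets. A gene was counted as higher or lower when its level differed at least 2 times and reached 50 CPM in either set. At that level the selected nuclei hold 154.0 UMIs of a gene at E18.5 and 93.5 at P3. The rule genes were left out of all such counts. A gene could pass through the set where it was high alone, so counts within a gene list are partly set by this filter. Because the rule used these very nuclei, every difference from the other nuclei is a description.

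Sim1 and Sim2 encode basic helix-loop-helix PAS transcription factors, which pair with ARNT proteins. Sim1 was the commonest marker, with a UMI in 91.8% of the selected nuclei at E18.5 and 96.1% at P3. Its level was 936 CPM against 112.9 in the other nuclei at E18.5, and 808.5 against 139.8 at P3. A nucleus of another class also showed Sim1 at times: 10.9% and 15.7% of nuclei with at least 3 of 10 endothelial genes had a UMI of it, at median depths of 3153 and 4073 UMIs. Sim2 was rarer, at 197.9 CPM against 9.97 at E18.5 and 140.6 against 14.6 at P3. It was found in 32.6% and 23.3% of the selected nuclei, and in 1.30% and 2.15% of the endothelial ones.

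Lgr5 stood at 364.6 CPM in the selected nuclei and 18.1 in the other nuclei at E18.5, and at 217.6 and 10.7 at P3. The ratio was near 20 times at both ages (20.13, 18.46 to 21.95, and 20.44, 17.81 to 23.46), although the level itself was lower at P3. Nrcam, which encodes a cell adhesion molecule of the L1 family, stood at 311.6 against 19.7 CPM at E18.5 and 321.4 against 22.7 at P3. Skap1, an adaptor gene best known from T cells, stood at 309.9 against 32.8 CPM at E18.5 and 269.5 against 28.5 at P3. The ratios of Nrcam and Skap1 thus hardly differed between the ages, at 15.8 and 14.1 for Nrcam and 9.46 and 9.47 for Skap1.

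Tfap2b, an AP-2 transcription factor gene, stood at 274.5 against 35.7 CPM at E18.5 and 257.2 against 44.8 at P3. Pappa2, which encodes a protease that cleaves IGF-binding proteins and is known from the thick ascending limb and macula densa, stood at 74.6 against 18.3 CPM at E18.5 and 99.99 against 20.88 at P3. The exclusion genes were not all at 0, since a nucleus could hold 1 UMI of each. Slc12a1 stood at 48.2 against 399.2 CPM at E18.5 and 54.0 against 892.9 at P3.

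Since depth moves such shares, every nucleus was also thinned to 1000 UMIs. Sim1 was then found in 55.7% of the selected and 8.46% of the other nuclei at E18.5, and in 49.7% and 10.3% at P3. Lgr5 was found in 24.9% and 1.44% at E18.5 and in 13.6% and 0.915% at P3. Sim2 was found in 16.2% and 0.896% at E18.5 and in 10.3% and 1.42% at P3. Sim1 was thus the commonest marker also with depth equal. At P3, Skap1 was found in 70.9% and Nrcam in 60.3% of the selected nuclei before thinning, and after it in 21.8% (17.5 to 26.7) and 24.9% (20.3 to 29.9), so the order of these 2 could not be told with depth equal.

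Many selected nuclei lay at the edge of the rule. Of the 819 at E18.5, 425 held exactly 3 markers, 250 held 4, 114 held 5, 25 held 6 and 5 held all 7. Of the 330 at P3, 165 held 3, 89 held 4, 55 held 5, 17 held 6 and 4 held all 7. The commonest combination was Sim1, Lgr5 and Skap1 with no other marker, in 65 nuclei at E18.5 (7.94%) and 35 at P3 (10.6%). Sim1, Tfap2b and Skap1 came next at both ages, in 52 and 32 nuclei.

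Levels of genes that the rule did not name differed with the number of markers across that edge. Just outside it were 947 nuclei with exactly 2 markers at E18.5 and 550 at P3, after those with 2 UMIs of an exclusion gene were set aside. Kcnc2, a voltage-gated potassium channel gene, stood at 58.7 CPM in nuclei with no marker, 493.2 with 2, 687.3 with 3 and 1072 with 5 or more at E18.5. At P3 these levels were 65.6, 400.4, 740.0 and 1160. Kcnc2 was therefore already high below the threshold, and as a fold the step from 2 to 3 markers was smaller than that from 0 to 2.

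Ptprt, a receptor tyrosine phosphatase gene, stood at 50.4, 153.1, 311.8 and 951.3 CPM with 0, 2, 3 and 5 or more markers at E18.5, and at 44.6, 181.1, 314.2 and 849.5 at P3. Spon1, which encodes the extracellular matrix protein F-spondin, differed most at the upper end. It stood at 39.7 CPM with 2 markers, 115.0 with 3 and 568.4 with 5 or more at E18.5, and at 53.3, 80.8 and 655.8 at P3. Pou3f3, a POU-domain transcription factor gene, stood at 61.5 CPM with 2 markers, 92.9 with 3, 126.0 with 4 and 114.0 with 5 or more at E18.5, and at 77.2, 117.3, 123.0 and 125.1 at P3. Levels of Pou3f3 were therefore similar from 3 markers on, while those of Ptprt and Spon1 went on being higher.

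Slc8a1, the sodium-calcium exchanger gene of the distal convoluted and connecting tubule, ran the other way above 2 markers. At E18.5 it stood at 1249 CPM with 2 markers, 799.7 with 3, 460.6 with 4 and 389.7 with 5 or more, and at P3 at 2520, 1788, 1167 and 746.6. Gata3, a transcription factor gene of the ureteric epithelium, stood at 208.5, 215.0, 138.7 and 51.0 CPM at E18.5 and at 134.2, 234.5, 104.8 and 135.2 at P3. Slc8a1 was thus lower with each further marker from 2 on, at both ages. Nuclei with 3 and with 5 or more markers also differed in median depth, at 3421 and 3938 UMIs at E18.5 and 5149 and 6779 at P3, and the part of depth was not tested.

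**Figure D1:**
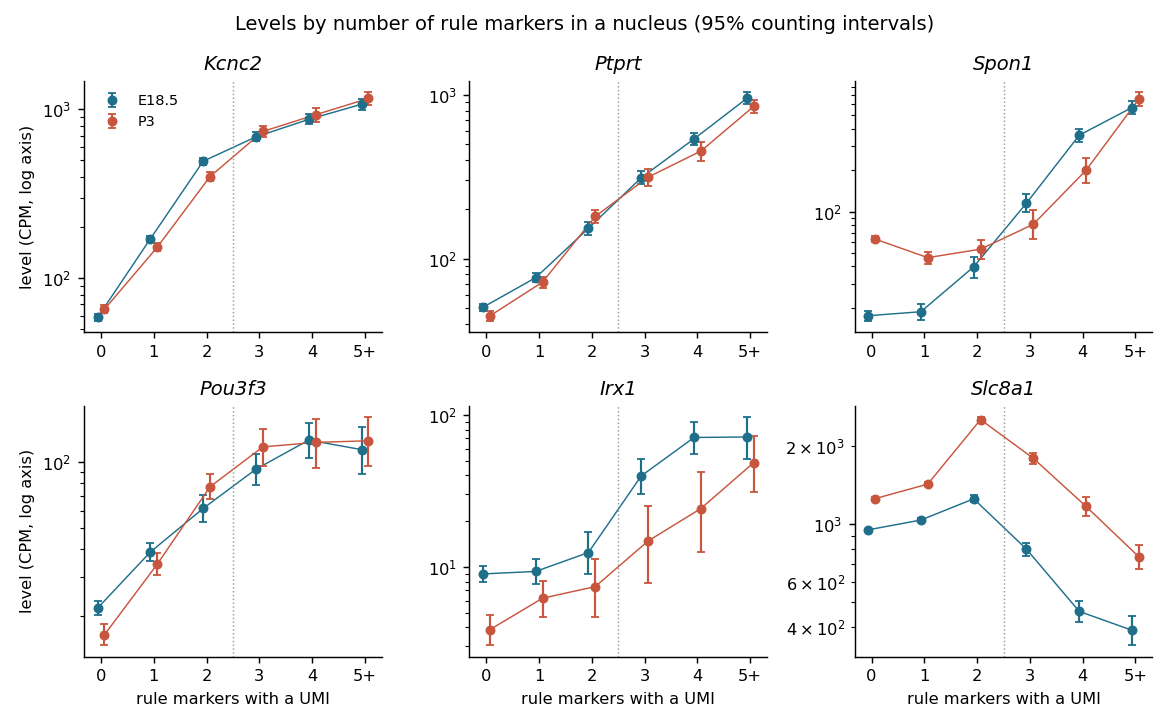
Level of 6 genes that the rule did not name (CPM, log axis) against the number of rule markers with a UMI in a nucleus, from 0 to 5 or more, for E18.5 and P3, with nuclei that hold 2 UMIs of an exclusion gene left out. Bars are exact Poisson 95% intervals and the dotted line is the threshold of the rule; Kcnc2, Ptprt, Spon1, Pou3f3 and Irx1 are higher to its right, and Slc8a1 is highest at 2 markers.

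Across all genes, 196 of 5184 genes tested at E18.5 were at least 2 times higher in the selected nuclei (3.78%) and 250 were at most 0.5 times as high (4.82%). At P3, 208 of 4928 were higher (4.22%) and 405 were lower (8.22%). Of 4471 genes tested at both ages, 138 were higher at both (3.09%), 196 were lower at both (4.38%), and 0 were higher at one age and lower at the other.

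The 12 genes that led at both ages were taken by the smaller of their ratios, and 2 of them, Gm13963 and Pantr2, are noncoding. Ptprt (chr2:161521990-162661147, minus strand) stood at 503.7 CPM against 71.2 at E18.5 and 493.0 against 68.0 at P3. It was 7.07 times higher (6.66 to 7.50) and 7.25 times higher (6.72 to 7.81). Kcnc2 (chr10:112271121-112467024, plus strand) stood at 817.8 against 126.0 CPM and 901.6 against 137.1, ratios of 6.49 and 6.58. Both genes were thus raised to nearly the same degree at the 2 ages.

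Kcnh8, a further voltage-gated potassium channel gene, stood at 100.6 against 14.7 CPM at E18.5 and 119.8 against 21.4 at P3. Nrg3, which encodes a ligand of the receptor ERBB4, stood at 442.8 against 81.2 CPM at E18.5 and 427.8 against 47.9 at P3. It was found in 24.9% and 32.1% of the selected nuclei, fewer than Kcnc2 with 71.9% and 75.5%. Slit1, a ligand gene of the ROBO receptors, stood at 77.5 against 15.2 CPM at E18.5 and 72.7 against 16.7 at P3. These ligand genes were found in a minority of the selected nuclei, with Slit1 found in 20.2% and 20.6%.

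Prdm16, which encodes a zinc-finger regulator related to the protein of Mecom, stood at 453.2 against 91.5 CPM at E18.5 and 676.4 against 147.1 at P3. Its relative Mecom stood at 2844 against 1089 CPM and 3582 against 1174. Both were higher in the selected nuclei, Prdm16 by 4.952 and 4.599 times and Mecom by 2.61 and 3.05 times.

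Spon1 (chr7:113765998-114043370, plus strand) was the leading gene whose ratio differed most between the ages. It stood at 276.4 CPM in the selected nuclei at E18.5 and 264.7 at P3, while the other nuclei held 24.3 and 58.8. The ratio was 11.39 at E18.5 (10.44 to 12.43) and 4.503 at P3 (4.079 to 4.962). The level in the selected nuclei hardly differed, and the difference between the ratios lay in the other nuclei.

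Pantr2, a noncoding RNA gene at chr1:42707061-42713454 on the minus strand, lies next to Pou3f3 at chr1:42695768-42703176 on the plus strand. Pantr2 stood at 94.1 against 18.6 CPM at E18.5 and 75.4 against 16.5 at P3, and Pou3f3 at 107.1 against 32.5 and 120.8 against 33.0. The neighbours were thus both higher at both ages. The remaining leading genes were Galntl6 (532.3 against 103.2 CPM and 269.5 against 53.6) and Chst8 (89.9 against 17.2 and 139.0 against 22.4), which encode enzymes of sugar chains, Frmd5 (125.0 against 23.4 and 67.4 against 11.0), and Gm13963 (360.1 against 59.4 and 227.3 against 46.3). Gm13963 is annotated as antisense and lies on the minus strand within Fmn1 (chr2:113327736-113716767, plus strand). Fmn1 was itself 4.925 times higher at E18.5 and 4.061 times at P3. Whether strand was used in counting is not stated, so the value of Gm13963 is uncertain.

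**Figure D2:**
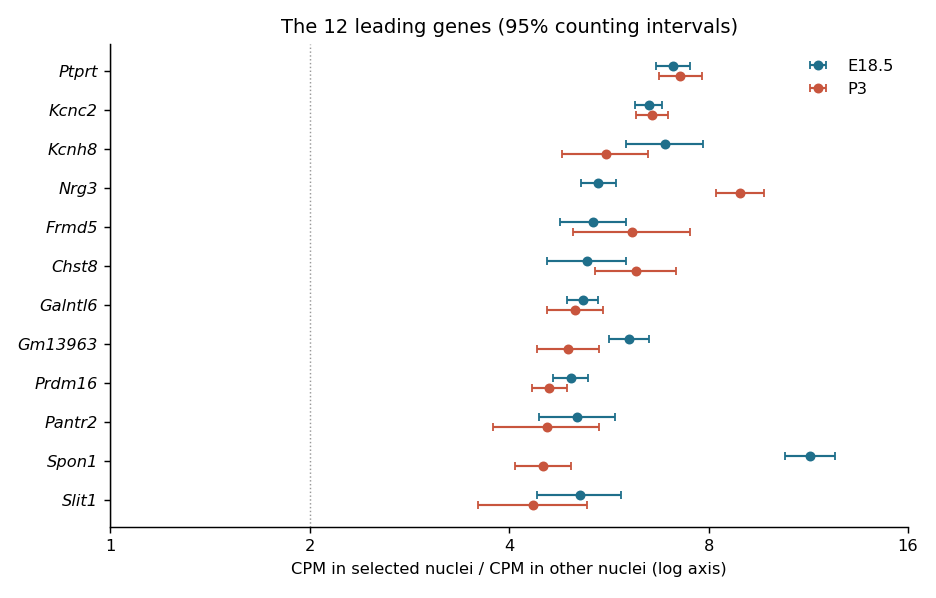
Ratio of the level in the selected nuclei to that in the other nuclei for the 12 leading genes, at E18.5 and P3, with exact binomial 95% intervals and a dotted line at 2 times. All points lie above 4 times, and Spon1 shows the widest gap between the ages, at 11.39 and 4.503.

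Promoter sequence is shown for the marker that nearly all selected nuclei held and for 3 leading genes, because Tfap2b and its relative Tfap2a encode AP-2 factors and the AP-2 motif was looked for in these windows. RefSeq promoters (build GRCm38.p6, 250 bases before to 50 after the start) were found for 4 of the 7 markers and 10 of the 12 leading genes. The letters searched were GCCNNNGGC for AP-2, CTTTGAT for TCF and LEF, and ACGTG for SIM with ARNT, each on both strands, and none of the 3 contains another. Capitals mark the match to the AP-2 letters.

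Sim1, chr10:50895401-50895700, plus strand: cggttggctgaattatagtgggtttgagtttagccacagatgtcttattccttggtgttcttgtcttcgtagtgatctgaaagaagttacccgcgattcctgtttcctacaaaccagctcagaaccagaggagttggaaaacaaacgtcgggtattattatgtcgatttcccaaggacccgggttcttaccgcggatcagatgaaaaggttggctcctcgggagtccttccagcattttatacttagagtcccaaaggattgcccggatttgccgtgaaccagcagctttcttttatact

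Ptprt, chr2:162661098-162661397, minus strand: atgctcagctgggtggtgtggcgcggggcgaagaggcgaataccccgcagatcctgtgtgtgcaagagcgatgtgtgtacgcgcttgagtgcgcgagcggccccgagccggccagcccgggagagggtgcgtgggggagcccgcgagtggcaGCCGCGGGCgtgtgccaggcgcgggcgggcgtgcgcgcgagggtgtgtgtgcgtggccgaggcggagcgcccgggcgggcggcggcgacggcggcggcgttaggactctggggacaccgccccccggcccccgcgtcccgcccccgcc

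Nrg3, chr14:39473039-39473338, minus strand: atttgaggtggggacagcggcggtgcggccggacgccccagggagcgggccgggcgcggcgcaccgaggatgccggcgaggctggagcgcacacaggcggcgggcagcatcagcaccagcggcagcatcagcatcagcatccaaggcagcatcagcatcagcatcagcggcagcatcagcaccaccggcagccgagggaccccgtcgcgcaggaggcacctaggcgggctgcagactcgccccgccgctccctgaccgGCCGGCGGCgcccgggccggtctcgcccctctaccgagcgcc

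Prdm16, chr4:154636824-154637123, minus strand: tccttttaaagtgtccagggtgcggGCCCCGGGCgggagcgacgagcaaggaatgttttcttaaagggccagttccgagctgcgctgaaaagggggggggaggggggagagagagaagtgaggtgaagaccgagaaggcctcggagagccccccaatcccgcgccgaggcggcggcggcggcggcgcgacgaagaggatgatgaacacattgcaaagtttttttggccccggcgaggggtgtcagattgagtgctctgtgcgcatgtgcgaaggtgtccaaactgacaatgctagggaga

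The 10 leading genes had 13 promoter windows, since Kcnc2 had more than 1 start. The AP-2 letters lay in 5 of the 13 windows, those of 5 genes, and in 5450 of all 32851 promoters (16.6%). Counted from the start site, the match began at position -98 in Ptprt, 9 in Nrg3, -225 in Prdm16, -228 in Kcnh8 and 8 in Chst8. The SIM letters, present in 19.6% of all promoters, lay in that of Gm13963, and the TCF letters, present in 3.73%, in 0 of the 13. The promoters of Sim1, Tfap2b, Nrcam and Pappa2 held 0 of the 3 motifs. A match only describes the letters of the window.

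Most transcription factor genes of the distal nephron that could be tested were higher in the selected nuclei. At E18.5, 8 of 8 tested of 12 listed genes were at least 2 times higher, beside 3.78% of all genes, and at P3 5 of 7 were, beside 4.22%. The median log2 ratio of those tested was 1.53 at E18.5 and 1.61 at P3, where that of all genes tested was 0.04 and 0.09. Pou3f3, Irx1 and Tfap2a at E18.5, and Pou3f3, Tfap2a and Emx2 at P3, reached 50 CPM in the selected nuclei only. At E18.5, Irx3, Prox1 and Esrrb, which were not higher, reached it in neither set. These counts and medians are therefore partly set by the filter. Summed over the list, the level was 6107 against 2534 CPM at E18.5 (2.41 times, 2.37 to 2.45) and 6726 against 3507 at P3 (1.92 times, 1.88 to 1.95). Mecom gave 46.6% and 53.3% of these sums and was not restricted to distal nuclei, with a UMI in 62.4% and 71.9% of endothelial nuclei. When nuclei with at least 3 genes of endothelium, stroma, leukocytes, podocytes or proximal tubule were left out of both sets, the summed ratio was 1.67 at E18.5 and 1.18 at P3, with 223 and 94 selected nuclei left.

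Lhx1, a LIM-domain factor gene needed from the renal vesicle on, stood at 215.2 against 70.3 CPM at E18.5 and 209.6 against 79.0 at P3. Emx2, a homeobox gene of the ureteric bud and early nephron, stood at 147.2 against 54.5 CPM and 130.5 against 38.7. Tfap2a, the AP-2 relative of Tfap2b, stood at 53.4 against 13.3 CPM and 70.1 against 11.1, the largest ratio of the list at P3 (6.32). All 3 were thus higher at both ages. Irx1 stood at 55.4 against 11.4 CPM at E18.5, and at 26.2 against 7.61 at P3, where it fell below the 50 CPM filter. Irx2 stood at 32.2 against 7.18 and 23.0 against 6.34 CPM, below the filter at both ages.

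Esrrg, a nuclear receptor gene that is high in the mature distal tubule, was past 2 times at E18.5 only. It stood at 2264 against 1076 CPM at E18.5 (2.10 times) and at 2085 against 1876 at P3 (1.11 times). Irx3 (13.0 against 14.7 CPM at E18.5), Prox1 (4.88 against 6.57) and Esrrb (4.56 against 9.53) were low in both sets.

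Relatives of the rule markers were mixed. Arnt2, which encodes a partner of SIM proteins, stood at 192.4 against 71.1 CPM at E18.5 and 270.0 against 102.0 at P3, whereas Arnt stood at 86.6 against 112.2 and 126.2 against 147.0. Pappa, the relative of Pappa2, was lower in the selected nuclei, at 41.4 against 97.8 CPM and 29.9 against 79.1. Of 6 relatives tested at each age, of 13 listed, Arnt2 and Tfap2a were higher, beside 3.78% and 4.22% of all genes, Pappa was lower, beside 4.82% and 8.22%, and 3 were between. Tfap2a reached 50 CPM in the selected nuclei only, so the filter itself favoured its being counted as higher.

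Genes of Wnt response showed a mixed pattern too. Rnf43 and Znrf3 encode ubiquitin ligases that remove Wnt receptors and are themselves held back by LGR receptors with R-spondins. Rnf43 stood at 100.6 against 26.6 CPM at E18.5 and 118.2 against 42.7 at P3, ratios of 3.78 and 2.77. Znrf3 stood at 562.3 against 274.3 CPM and 658.8 against 350.3, ratios of 2.05 and 1.88. Lef1, a nuclear effector gene, stood at 158.9 against 90.8 CPM at E18.5 and was 1.39 times higher at P3, and Lgr4 stood at 475.7 against 316.3 and 557.2 against 358.1. The ligand gene Rspo3 was low, at 11.4 against 49.3 CPM and 6.42 against 36.5. Of the list, 2 of 6 tested genes were higher at E18.5 and 1 of 8 at P3, beside 3.78% and 4.22% of all genes, with median log2 ratios of 0.70 and 0.54.

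Genes of the committing nephron and renal vesicle were higher as a sum, at 1637 against 882.4 CPM at E18.5 (1.85 times) and 1778 against 973.3 at P3 (1.83 times). Jag1, a Notch ligand gene, stood at 148.1 against 71.2 CPM and 191.4 against 84.8. Pax8 stood at 505.9 against 215.7 CPM and 606.9 against 327.3. Wnt4, which drives the change from mesenchyme to epithelium, went against them at 64.1 against 74.3 CPM and 55.6 against 80.7. Of 6 genes tested at each age, 3 were higher, beside 3.78% and 4.22% of all genes, and 0 lower, beside 4.82% and 8.22%.

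Nephron progenitor genes were lower as a sum, at 504.0 against 925.1 CPM at E18.5 and 438.5 against 846.2 at P3. Eya1 stood at 113.0 against 334.4 CPM and 90.9 against 227.8, and Itga8, which is also a gene of stroma, at 109.7 against 351.0 and 174.3 against 494.7. Uncx departed from the list, at 205.4 against 106.3 CPM and 155.1 against 67.4. Six2, the defining gene of these progenitors, was near 0 at both ages, at 6.19 against 9.84 CPM and 0.535 against 1.86.

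Adhesion genes of epithelia were higher in part. Cdh3, the P-cadherin gene, stood at 117.5 against 28.4 CPM at E18.5 and 149.2 against 27.6 at P3, and Cdh1, the E-cadherin gene, at 161.2 against 56.0 and 115.5 against 52.9. Epcam stood at 156.6 against 104.3 CPM at E18.5 and 113.9 against 39.2 at P3. Of the list, 3 of 9 tested genes were higher at E18.5, and at P3 4 of 10 were higher and 1 lower. Of all genes, 3.78% and 4.22% were higher and 8.22% lower at P3. Of the Notch pathway, 1 of 5 tested genes was higher at each age, beside the same 3.78% and 4.22%, and that gene was Jag1.

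Genes of the IGF axis were near equality as a sum, at 2010 against 2326 CPM and 1932 against 2175. Igf1r, the receptor gene, stood at 803.8 against 734.9 CPM and 941.7 against 804.5, and Igfbp5, which encodes a substrate of PAPPA2, at 177.1 against 279.3 and 93.0 against 150.9. Besides Pappa at both ages, Igf1 was lower at P3, at 20.9 against 56.7 CPM.

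Markers of the mature thick limb were low, while those of the distal convoluted and connecting tubule were mixed, and the rule itself kept out nuclei with Slc12a1 or Slc12a3. Genes of the thick ascending limb and macula densa summed to 178.1 against 291.4 CPM at E18.5 and 254.0 against 532.4 at P3. Enox1 stood at 52.7 against 121.8 CPM and 64.2 against 151.6, and Kcnj1, the potassium channel gene of that segment, at 6.84 against 12.4 and 5.35 against 24.3. When nuclei with the exclusion genes were let in, the summed ratio turned from 0.611 to 2.06 at E18.5 and from 0.477 to 2.56 at P3. Genes of the distal convoluted and connecting tubule summed to 1364 against 1788 CPM at E18.5 and 2067 against 2461 at P3, with Slc8a1 at 45.2% and 65.2% of the sums. Of 7 tested at E18.5, 1 was higher and 0 lower (median log2 ratio 0.62), and of 8 at P3, 1 was higher and 1, Kl, lower (0.02), beside 3.78% and 4.22% of all genes higher and 4.82% and 8.22% lower. At least 3 of the 13 had a UMI in 47.5% and 64.5% of the selected nuclei and in 31.2% and 44.7% of the others. These shares were not taken at equal depth, and the selected nuclei were deeper. Tmem52b was higher at both ages (60.2 against 25.9 CPM and 77.0 against 34.4), while Trpm6 stood at 10.74 against 12.03 and 17.11 against 24.40.

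Genes of the cell cycle summed to 2426 against 1807 CPM at E18.5 (1.34 times) and 2007 against 1282 at P3 (1.57 times). Of the genes tested, 0 of 19 at E18.5 and 0 of 17 at P3 reached 2 times, beside 3.78% and 4.22% of all genes. Top2a, a topoisomerase gene of dividing cells, stood at 386.8 against 245.8 CPM and 275.4 against 146.5. At 1000 UMIs a nucleus, at least 3 of the 24 genes were found in 30.4% of selected nuclei (27.3 to 33.7) and 22.7% of the others at E18.5. At P3 these shares were 21.5% (17.2 to 26.4) and 13.5%. The renal vesicle nuclei described below had 26.6% (25.03 to 28.3) and 18.3% (16.6 to 20.1), intervals that overlapped those of the selected nuclei, and nuclei with at least 3 endothelial genes had 24.5% and 17.2%. Before thinning the shares of selected and other nuclei were 69.2% and 55.8% at E18.5 and 66.4% and 41.4% at P3. Free RNA in droplets also counts towards such shares, and its part was not tested.

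Markers of other classes were mostly low. The 8 genes lowest at both ages were Gm43507, Ptpro, Magi2, Lama2, Grm7, Colec12, Ddr2 and Apba1. Magi2, a scaffold gene of the podocyte slit diaphragm that many cell types also use, stood at 492.3 against 2469 CPM at E18.5 and 409.1 against 1820 at P3. Ptpro, a podocyte phosphatase gene, stood at 39.1 against 192.8 CPM and 15.5 against 136.5. Lama2, a laminin gene of stroma, stood at 58.6 against 253.6 CPM and 100.5 against 422.7. Podocyte genes thus lay among the lowest, and nuclei with Nphs1 had been left out by the rule. Without the nuclei of either set that held at least 3 genes of another class, Magi2 stood at 1.07 times at E18.5 and 0.930 times at P3. Magi2 is itself in the podocyte list that this step used, so the value is tied to it.

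By lists, endothelial genes summed to 316.5 against 831.0 CPM at E18.5 and 296.8 against 989.4 at P3. Of those tested, 7 of 7 were lower at each age, beside 4.82% and 8.22% of all genes. A low gene could pass the 50 CPM filter through the other nuclei alone, so this count and the next ones are partly set by it. Podocyte genes were lower in 6 of 10 and 7 of 7, stromal genes in 5 of 9 and 7 of 8, and proximal tubule genes in 4 of 8 and 10 of 10. Leukocyte genes summed to 39.4 against 120.5 CPM and 43.9 against 192.1, with 0 genes above the filter. Stromal genes were still present, with Col3a1 the most abundant at E18.5 and Ebf1 at P3, and at least 3 of 10 had a UMI in 43.2% and 40.0% of the selected nuclei. In the other nuclei that share was 63.2% and 62.3%.

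Skap1 is a T cell gene, so markers of T cells were looked at as well. They summed to 76.5 against 30.9 CPM at E18.5 and 57.2 against 34.4 at P3, and Bcl11b alone gave 88.1% and 83.2% of the sums. Bcl11b stood at 67.4 against 21.5 CPM and 47.6 against 26.0. The defining genes Cd3d, Cd3g, Themis and Cd2 were at 0 in the selected nuclei at both ages. At least 3 leukocyte genes had a UMI in 1 of 819 selected nuclei and 2 of 330. Glia and neuron genes summed to 68.4 against 83.8 CPM at E18.5, with Elavl4 at 38.6% of the sum and Sox10 and Th at 0. At P3 they summed to 67.9 against 55.0, with Erbb3 at 34.6% and 7 of 12 genes at 0. Erythroid genes summed to 694.8 against 897.9 CPM and 120.8 against 158.5, ratios of 0.774 and 0.763, with Hbb-bs at 57.9% and 45.6%.

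**Figure D3:**
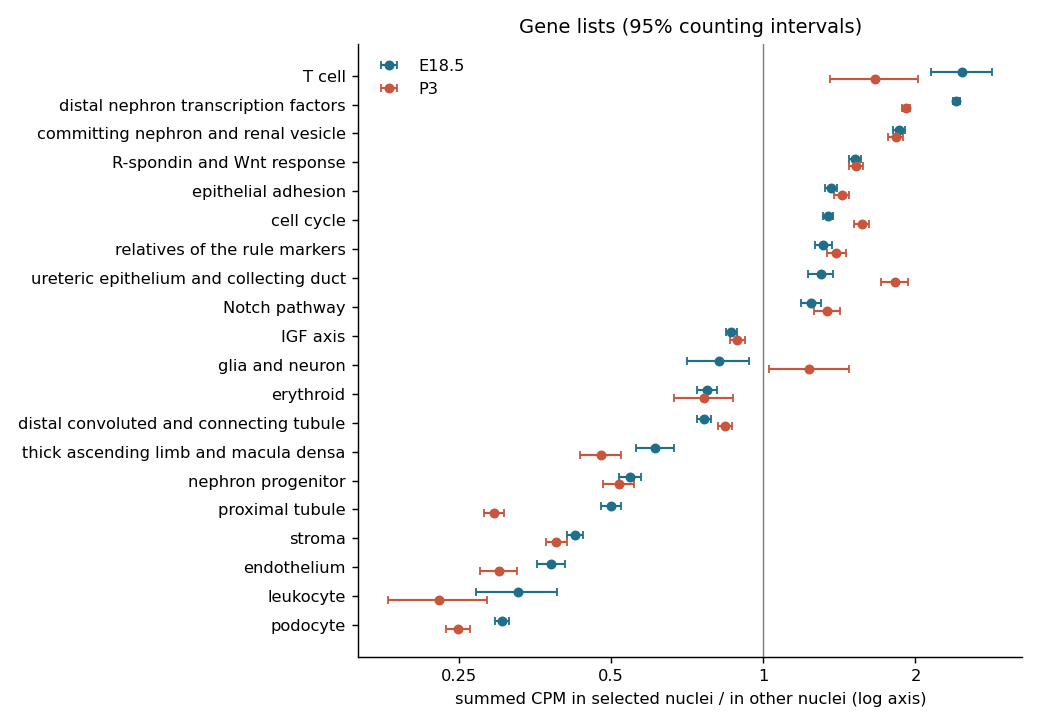
Ratio of the summed level of 20 gene lists in the selected nuclei to that in the other nuclei (log axis), at E18.5 and P3, with exact binomial 95% intervals. Distal nephron transcription factors stand at 2.41 and 1.92, endothelium at 0.381 and 0.300, and the ureteric list at 1.30 and 1.82; the T cell point at 2.47 and 1.66 is mostly Bcl11b.

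The selected nuclei were next set beside the nuclei most like them in development. Renal vesicle nuclei were those outside the selection with at least 3 of 12 genes of the committing nephron (2934 at E18.5 and 1932 at P3). Thick limb nuclei held at least 2 UMIs of Slc12a1 (1084 and 1372) and distal convoluted nuclei at least 2 of Slc12a3 (230 and 199). These sets were built by thresholds on genes that the rule uses or that the lists hold, so the values again describe the sets. Thick limb and distal convoluted nuclei that met the threshold of 3 markers were not taken out. They are also among the nuclei held out by the exclusion genes, described below.

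Against renal vesicle nuclei, the selected nuclei held as much Lhx1 and more Mecom. Lhx1, Jag1, Wnt4 and Cdh6 are in the list that chose the renal vesicle nuclei. Lhx1 stood at 215.2 against 202.2 CPM at E18.5 and 209.6 against 203.7 at P3, with intervals of the ratio that included 1 (0.974 to 1.16 and 0.922 to 1.15). Jag1 stood at 148.1 against 194.6 CPM and 191.4 against 184.4. Mecom stood at 2844 against 794.8 CPM and 3582 against 798.8, and Prdm16 at 453.2 against 86.3 and 676.4 against 126.1. Wnt4 and Cdh6 were lower in the selected nuclei, Wnt4 at 64.1 against 156.4 CPM and 55.6 against 176.6, and Cdh6 at 454.2 against 932.4 and 477.5 against 602.1. In all, 116 of 5098 genes (2.28%) were higher than in renal vesicle nuclei at E18.5 and 157 were lower (3.08%), and at P3 154 of 4900 were higher (3.14%) and 304 were lower (6.2%).

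Against thick limb nuclei, Pou3f3 and Irx1 differed less than Lhx1 and Emx2 did. Pou3f3 stood at 107.1 against 80.3 CPM at E18.5 and 120.8 against 63.6 at P3, and Irx1 at 55.4 against 42.0 and 26.2 against 21.9. Lhx1 was 2.66 and 3.23 times higher in the selected nuclei and Emx2 2.48 and 3.17 times. Lgr5, a rule marker, stood at 364.6 against 51.9 CPM and 217.6 against 27.3. Thick limb nuclei thus held Pou3f3 and Irx1 as well, though less Pou3f3, mainly at P3, and they held less Lhx1 and Emx2.

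Genes of the mature thick limb were on the other side. Enox1 stood at 52.7 against 571.0 CPM at E18.5 and 64.2 against 362.0 at P3, and Ptger3, a prostaglandin receptor gene, at 2.93 against 85.3 and 6.95 against 82.4. Esrrg stood at 2264 against 3876 CPM and 2085 against 3970. Of 5100 genes, 131 were higher in the selected than in the thick limb nuclei at E18.5 (2.57%) and 144 lower (2.82%). At P3, 162 of 4869 were higher (3.33%) and 265 lower (5.44%).

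Sim1 and Pappa2 were also present in thick limb nuclei, some of which themselves met the threshold of 3 rule markers. The part of those nuclei in these levels was not tested. Sim1 stood at 370.4 CPM in them at E18.5 and 316.7 at P3, under the selected nuclei by 2.53 and 2.55 times. Pappa2 stood at 209.2 CPM in thick limb nuclei against 74.6 in the selected nuclei at E18.5, and at 96.92 against 99.99 at P3. Pappa2 was thus higher in thick limb nuclei at E18.5, and at P3 the interval of the ratio included 1 (0.873 to 1.22).

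Distal convoluted nuclei stood further off, with 412 of 5263 genes higher in the selected nuclei at E18.5 (7.83%) and 323 lower (6.14%), and 370 of 4962 (7.46%) and 322 (6.49%) at P3. Trpm6, a magnesium channel gene, stood at 10.7 against 370.3 CPM at E18.5 and 17.1 against 586.4 at P3. Slc8a1 stood at 617.0 against 10470 CPM and 1348 against 14800. Mecom by contrast stood at 2844 against 3107 CPM and 3582 against 2433, so it was shared across the distal nuclei.

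**Figure D4:**
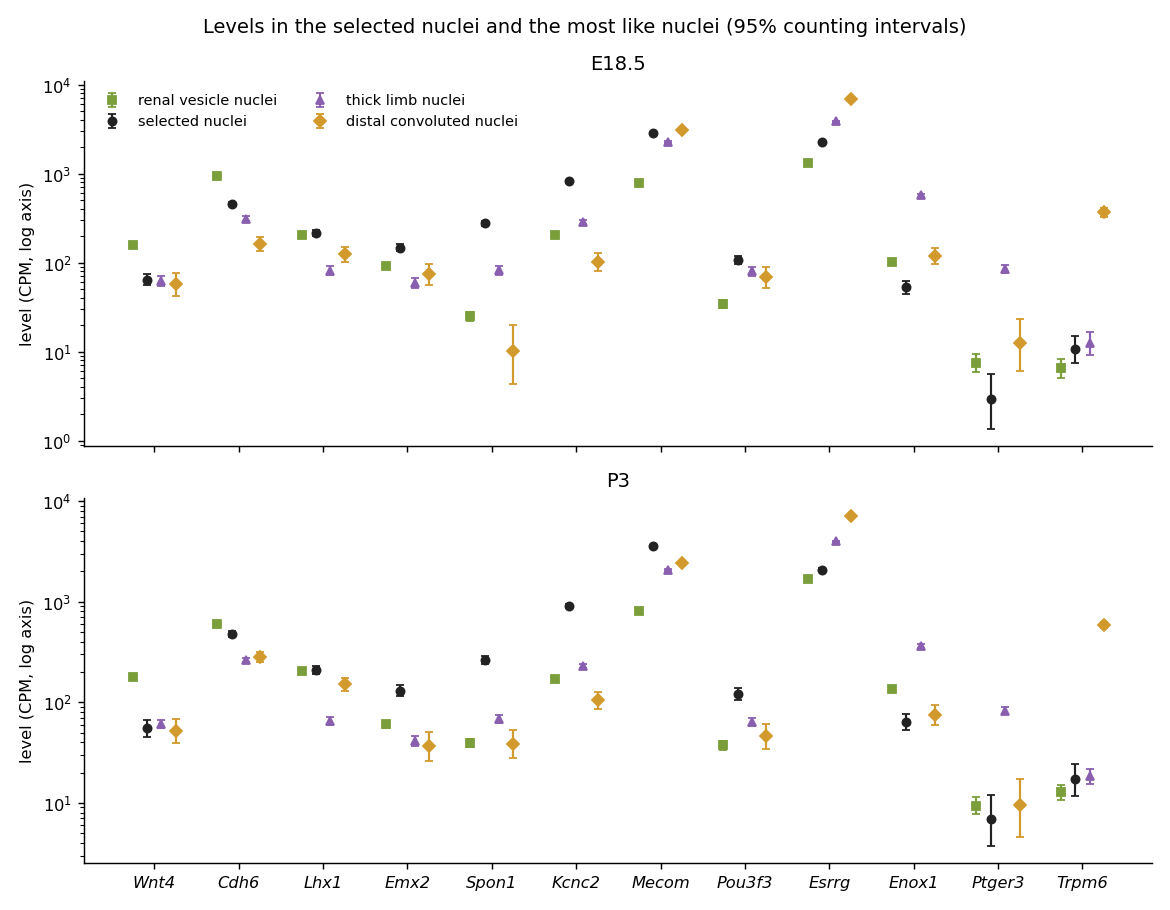
Level of 12 genes (CPM, log axis) in renal vesicle, selected, thick limb and distal convoluted nuclei, at E18.5 and P3, to be compared within a gene only. Lhx1 is about level between renal vesicle and selected nuclei, Spon1 and Kcnc2 are highest in the selected nuclei, and Enox1, Ptger3, Esrrg and Trpm6 are highest in the thick limb or distal convoluted nuclei.

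The exclusion genes held out a set that met the marker threshold: 358 nuclei at E18.5 and 422 at P3. Pappa2 stood at 372.9 CPM in the held-out nuclei against 74.6 in the selected nuclei at E18.5, and at 230.3 against 99.99 at P3. Tfap2b stood at 477.3 against 274.5 CPM and 395.4 against 257.2. Lgr5 ran the other way, at 117.3 against 364.6 CPM and 62.0 against 217.6, and Sim1 differed less, at 711.3 against 936.0 and 608.1 against 808.5. The rule's exclusion therefore moved the nuclei towards Lgr5 and away from Pappa2 and Tfap2b. Of other genes, 117 of 5054 were higher in the selected nuclei at E18.5 (2.31%) and 147 lower (2.91%), and 198 of 4795 (4.13%) and 220 (4.59%) at P3.

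Genes of the ureteric epithelium and collecting duct marked a group among the selected nuclei. The list summed to 425.5 against 327.6 CPM at E18.5 (1.30 times, 1.23 to 1.37) and 586.6 against 322.4 at P3 (1.82 times, 1.71 to 1.93). Tfcp2l1, a collecting duct factor gene that distal tubules also use, gave 50.3% and 48.0% of the sums, and 0 of the 12 genes was at 0. At E18.5, 0 of 1 tested gene was higher, and at P3 Scnn1b and Scnn1g, which encode subunits of the epithelial sodium channel, were 2 of 3, beside 3.78% and 4.22% of all genes. Ret, the receptor gene of ureteric bud tips, lay below the filter at 18.2 against 6.64 CPM and 44.4 against 4.63. Ret was thus 2.74 times (2.03 to 3.65) and 9.60 times (7.32 to 12.5) higher in the selected nuclei.

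The group with at least 3 ureteric genes differed from the rest of the selected nuclei in genes outside that list. Gata3 stood at 436.1 CPM with the ureteric genes against 127.5 without at E18.5, and at 306.1 against 128.9 at P3. Slc8a1 stood at 1572 against 503.7 CPM and 2683 against 894.4. Nrg3, one of the leading genes, stood at 853.8 against 394.0 CPM and 694.5 against 337.3. Gfra1, the co-receptor gene of RET, stood at 777.0 against 441.4 CPM and 941.5 against 691.1. Gata3, Slc8a1 and Nrg3 were thus at least 2 times higher in that group at both ages. Slc8a1 is of the distal convoluted and connecting tubule list. Of that list, Calb1 stood at 1.76 and 2.06 times, Klhl3 at 1.40 and 2.09 times and Trpm6 at 1.51 and 2.60 times. Stk39 stood at 1.06 and 0.794 times. The intervals of Klhl3 and Trpm6 at E18.5 and of Stk39 at both ages included 1. Whether the group is ureteric or of the connecting tubule was not tested.

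Spon1, Ptprt and Lhx1 were lower there. Of the leading genes besides Nrg3, Frmd5 (1.09 and 1.27 times) and Gm13963 (1.18 and 1.37 times) had ratios above 1 at both ages. Their intervals included 1 except that of Gm13963 at P3. Chst8 stood at 0.6235 times at E18.5 and 1.287 times at P3, and Galntl6 was lower at 0.355 and 0.193 times. Spon1 stood at 86.0 CPM with the ureteric genes against 299.0 without at E18.5, and at 50.7 against 337.3 at P3. Ptprt stood at 150.5 against 545.5 CPM and 190.0 against 595.8, and Lhx1 at 132.1 against 225.1 and 84.4 against 252.1. Sim2, a rule marker, stood at 73.7 against 212.7 CPM and 19.0 against 181.9. Mecom stood at 2955 against 2830 CPM at E18.5 and at 4015 against 3435 at P3 (1.17 times, 1.11 to 1.23), and Prdm16 at 426.9 against 456.3 and 711.4 against 664.6. The intervals of Prdm16 at both ages and of Mecom at E18.5 included 1.

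Sim2 was found in 39.4% of selected nuclei with 0 ureteric genes and in 18.8% of those with 3 or more at E18.5, and in 33.0% and 5.19% at P3. The share of nuclei with at least 3 ureteric genes was lower where more rule markers were met. At E18.5 it was 13.2% (56 of 425) with 3 markers and 4.86% (7 of 144) with 5 or more. At P3 it was 30.9% (51 of 165) and 11.8% (9 of 76). Without the ureteric group, 739 and 253 selected nuclei were left, and the summed ratio of the distal transcription factors was 2.634 at E18.5 and 2.004 at P3. The ureteric group was deeper, with median UMIs of 4009.5 against 3504 in nuclei with 0 ureteric genes at E18.5 and 6146 against 5326 at P3. The part of depth, and of droplets with more than 1 nucleus, was not tested.

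**Figure D5:**
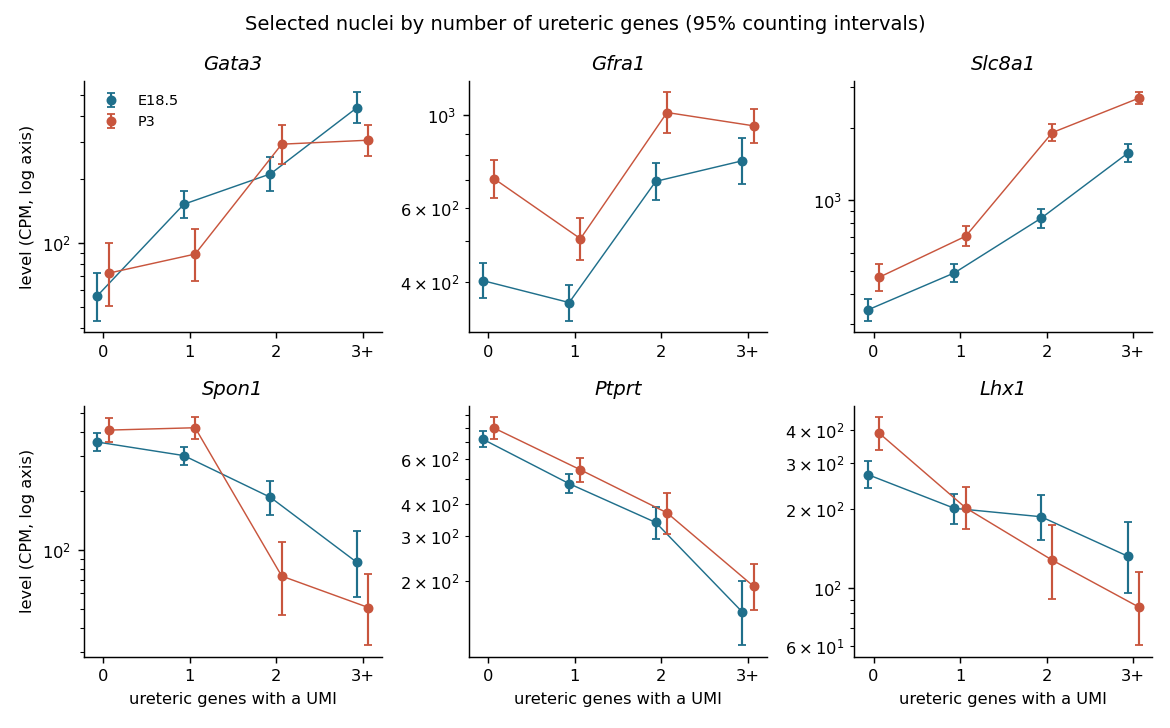
Level of 6 genes (CPM, log axis) in selected nuclei with 0, 1, 2 and 3 or more of 12 ureteric genes, at E18.5 and P3, with exact Poisson 95% intervals. Gata3 and Slc8a1 are highest and Spon1, Ptprt and Lhx1 lowest in nuclei with 3 or more.

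The selected nuclei were also split by whether they held a UMI of Lgr5 or Pappa2. At E18.5, 394 held Lgr5 and no Pappa2 (48.1%), 78 held Pappa2 and no Lgr5 (9.52%), 53 held both and 294 neither. At P3 these were 124 (37.6%), 47 (14.2%), 34 and 125. The absence of a UMI in a nucleus is not absence of the transcript, so the sets overlap in what they are. Of 5259 genes, 87 were at least 2 times higher in the Lgr5 nuclei than in the Pappa2 nuclei at E18.5 (1.65%) and 86 were lower (1.64%), and at P3 171 of 4942 were higher (3.46%) and 156 lower (3.16%).

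The genes ranked by agreement between the ages were few and rest on small sums, since the Pappa2 nuclei held 295781 UMIs at E18.5 and 260045 at P3. Uncx, a homeobox gene of nephron progenitors, stood at 271.2 CPM in the Lgr5 nuclei against 87.9 at E18.5, and at 250.6 against 49.99 at P3. Adamtsl1 stood at 787.0 against 263.7 CPM and 625.0 against 65.4. Cdh13, the T-cadherin gene, stood at 67.3 against 6.76 CPM and 120.9 against 3.85, and the interval of its ratio at P3 ran from 5.49 to 1257. Nell1, Kcnh8 and Ephb1 were the others of this direction.

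In the other direction, Prkd1, a kinase gene, stood at 142.6 CPM in the Lgr5 nuclei against 307.7 in the Pappa2 nuclei at E18.5, and at 160.3 against 369.2 at P3. Hnf4aos, a noncoding RNA gene beside the proximal tubule factor gene Hnf4a, stood at 6.66 against 64.2 CPM and 18.9 against 73.1. Dock8, Gm19950, Nsfl1c and B3gat2 were the others. Because these genes were chosen for agreement between the ages, that agreement is no result.

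Sim2 and Tfap2b are markers of the rule, whose values chose these nuclei, Kcnc2 and Spon1 are leading genes picked by rank, and Lef1 is of the gene lists. Sim2 stood at 224.6 CPM in the Lgr5 nuclei against 47.3 in the Pappa2 nuclei at E18.5, and at 170.5 against 11.5 at P3. Lef1 stood at 212.6 against 87.9 CPM and 303.0 against 80.8, and Kcnc2 at 1074 against 527.4 and 1279 against 657.6. Tfap2b was lower in the Lgr5 nuclei, at 212.6 against 395.6 CPM and 161.7 against 403.8. Spon1 was near equality, at 293.9 against 277.2 CPM and 298.7 against 246.1.

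Summed by list, genes of the renal vesicle were 1.48 times higher in the Lgr5 nuclei at E18.5 (1.32 to 1.65) and 1.41 times higher at P3. Cell cycle genes were 1.22 and 1.36 times higher. Nephron progenitor genes summed to 585.1 against 388.8 CPM and 544.9 against 307.6, and most of that difference was Uncx, which had been picked by rank. Eya1 of the same list stood at 114.6 against 121.7 CPM and 58.3 against 115.4. Distal nephron transcription factors summed to 5433 against 6806 CPM and 5754 against 7860, and that difference lay mostly in Mecom (2537 against 3634 and 3166 against 4368) and Esrrg (1819 against 2336 and 1483 against 2503). Lhx1 of the same list went the other way, at 273.9 against 179.2 CPM and 288.5 against 153.8. Irx1, Irx2, Pou3f3 and Emx2 also had ratios above 1 at both ages, with intervals that included 1, and Tfap2a had ratios of 0.643 and 0.659, whose intervals also included 1. Markers of other cell types moved between these sets too, and their part was not tested. Proximal tubule genes summed to 494.4 against 1001 CPM and 770.7 against 1096, and ureteric genes to 365.8 against 476.7 and 422.5 against 588.4. Endothelial genes summed to 317.2 against 172.4 CPM and 320.5 against 307.6, and stromal genes to 951.6 against 1102 and 1013 against 749.9.

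Between the ages, more genes were lower than higher at P3, in the selected nuclei and in the others. Of 5113 genes, 92 were at least 2 times higher at P3 in the selected nuclei (1.8%) and 385 were at most 0.5 times as high (7.53%). In the other nuclei, 175 of 5141 were higher (3.4%) and 526 lower (10.2%). When each gene's ratio was divided by that in the other nuclei, 23 genes were at least 2 times higher and 17 at most 0.5 times as high, and these need not be genes counted above. The ages differ in genotype, background, library and software release as well, and these cannot be told apart from age.

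The noncoding RNA gene Gm19951 had the largest ratio, at 10.4 CPM at E18.5 and 135.8 at P3 in the selected nuclei, 13.0 times higher there and 11.5 times in the other nuclei. Lars2, a mitochondrial leucyl-tRNA synthetase gene, stood at 281.6 and 1016 CPM, 3.61 times higher and 3.13 times in the other nuclei. Aadat, an enzyme gene of amino acid metabolism, stood at 35.8 and 154.0 CPM, 4.30 times higher against 2.17 in the other nuclei. Camk1d, Kcnd2 and Gphn were the others ranked highest, with ratios of 3.58, 3.28 and 3.14 in the selected nuclei.

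Hbb-bs, a globin gene of red blood cells, was ranked lowest at P3. It stood at 402.4 CPM at E18.5 and 55.1 at P3, 0.137 times as high, and 0.133 times in the other nuclei. Tpt1 stood at 1107 and 216.6 CPM. Fabp4, Hba-a1 and Uqcr10 were also among those ranked lowest, with ratios of 0.160, 0.191 and 0.196. Globin transcripts moved alike in both sets of nuclei, and the part of free RNA in the differences between the ages was not tested.

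Among the rule markers, Lgr5 stood at 0.597 times its E18.5 level in the selected nuclei at P3 (0.532 to 0.669), and at 0.588 times in the other nuclei. Sim2 stood at 0.710 times in the selected nuclei and 1.46 times in the others. Pappa2 stood at 1.34 times and 1.14 times, and Nrcam at 1.03 and 1.15 times. These levels are bound to the rule at each age. Of the lists, ureteric genes stood at 1.38 times their E18.5 level in the selected nuclei at P3 (1.27 to 1.49) and 0.984 times in the others. Markers of other cell types were mixed. Endothelial genes stood at 0.938 times in the selected nuclei and 1.19 times in the others, and stromal genes at 0.881 and 0.960 times. Proximal tubule genes stood at 1.602 times in the selected nuclei and 2.725 times in the others, and podocyte genes at 0.5587 and 0.6814 times. Cell cycle genes stood at 0.827 times in the selected nuclei and 0.710 times in the others, and distal nephron transcription factors at 1.10 and 1.38 times.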

How the data were processed

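Nuclei of pooled kidneys were sequenced in 2 libraries, 1 at E18.5 and 1 at P3, with a 3′ droplet kit. The authors deposited UMI counts per gene and barcode, whole numbers without normalization, made with Cell Ranger. The E18.5 matrix names release 7.0.0 in its header, the P3 matrix names 5.0.1, and the submitters' processing notes give 5.0.1 and build mm10 for both. By default, release 7.0.0 counts intronic reads and 5.0.1 does not, which could change any ratio between the ages. Whether introns were counted, the annotation release and the use of strand are not given in the sources used here. Of 32285 gene identifiers, 32158 were found in GENCODE M21 (GRCm38), which gave coordinates.

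Barcodes with 1000 to 6000 UMIs at E18.5 or 1000 to 10000 at P3, and a mitochondrial share of at most 0.6%, were kept. This removed 2927 barcodes of each library. No doublet caller was run and no clusters were made, so the UMI ceiling was the only guard against doublets. The selected nuclei held 3071519 UMIs at E18.5 and 1870108 at P3.

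UMIs were summed over the nuclei of a set and divided by the set's total. Shares have exact binomial 95% intervals, levels exact Poisson intervals, and ratios intervals from the conditional binomial. No test between libraries was possible with 1 library per age. Depth was equalised by drawing 1000 UMIs from each nucleus. The scripts were tested on simulated data. Python 3.11.15, numpy 2.4.6, scipy 1.17.1, pandas 2.3.3 and matplotlib 3.10.9 were used.

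The genes named were the rule genes and examples from the lists, and genes taken by rank. By rank these were the 12 with the highest smaller ratio of the ages and at least 50 CPM in the selected nuclei, and the 8 with the lowest larger ratio. The 6 highest and 6 lowest between the ages at 100 CPM or more, and the 6 highest and 6 lowest between Lgr5 and Pappa2 nuclei, were also taken. Gata3 and Gfra1 fall outside these rules and were chosen after their values were seen. Some genes that these rules name are not reported here. The members, the lists and the alternatives were chosen with earlier results of these data known. Alternatives varied the marker threshold and set, the reference nuclei, nuclei with genes of another class, the level filter and the scaling.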

Additional observations from a re-analysis of the deposited data

Results flagged for a closer look

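Barcodes outside the quality limits also met the marker rule. They entered no comparison of levels, and those above the UMI ceiling entered the share given with no ceiling. At E18.5 these were 335 of 2927 (11.4%), of which 334 lay among the 2307 barcodes above the UMI ceiling. At P3 they were 206 of 2927 (7.04%), of which 203 lay among the 1573 above the ceiling. An observed 0 would have allowed a share of up to 0.102%. Barcodes above the ceiling hold more UMIs, and the part of depth and of doublets in these shares was not tested.

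The summed level of glia and neuron genes in the selected nuclei was 0.8155 times that of the other nuclei at E18.5 (0.707 to 0.937) and 1.234 times at P3 (1.02 to 1.48). The direction thus differed between the ages, and the difference was not tested. Both sums were low, at 68.4 and 67.9 CPM, and 0 genes of the list reached 50 CPM.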

How the results depend on the processing

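No paired analysis was possible because each age has 1 library. The share of nuclei that met the rule, 4.39% at E18.5 and 3.55% at P3, was 9.458% and 9.474% with at least 2 markers, 2.11% and 1.776% with at least 4, and 1.259% and 0.7213% after thinning. It was 5.496% and 4.907% with no UMI ceiling and 6.303% and 8.096% with no exclusion genes. It was 2.067% and 1.529% with at least 3 of 5 markers (without Nrcam and Skap1), and 2.346% and 1.862% with at least 3 of 6 (without Sim1), the last chosen after seeing the data. Genes counted as higher at E18.5 numbered 196, and 392 with the filter at 10 CPM, 1980 with no filter and 116 without nuclei that held at least 3 genes of another class. At P3 they numbered 208, and 516, 2120 and, without nuclei with at least 5 genes of another class (chosen after seeing the data), 123. Lower genes numbered 250 at E18.5 and 405 at P3. They numbered 665 and 1004 with the filter at 10 CPM, 1808 and 2053 with no filter, 139 and 254 without nuclei of at least 3 other-class genes, and 161 and 244 without those of at least 5. The summed ratio of distal nephron transcription factors, 2.41 and 1.92, was 2.583 and 2.029 with at least 4 markers, 3.513 and 2.975 against nuclei with 0 markers, 1.674 and 1.182 without nuclei of at least 3 other-class genes, and 2.072 and 1.478 without those of at least 5. It was 2.621 and 2.04 as a mean over nuclei, 3.188 and 3.175 with no exclusion genes, 2.634 and 2.004 without nuclei of at least 3 ureteric genes (chosen after seeing the data), and 2.001 at P3 with at least 3 of 5 markers. It stayed above 1 under each of these. The thick limb sum, 0.6111 and 0.4771, was 0.791 and 0.6458 against nuclei with 0 markers, 0.396 and 0.241 without nuclei of at least 3 other-class genes, and 0.5339 and 0.3631 without those of at least 5. With no exclusion genes it reversed to 2.06 and 2.558, since nuclei with Slc12a1 then entered. Genes higher at P3 in the selected nuclei numbered 92, and 183 without nuclei of at least 3 other-class genes, 349 with the filter at 10 CPM, 1270 with no filter and 23 after division by the ratio of the other nuclei. Lower genes numbered 385, and 1020, 2099 and 17 under the last 3. Single genes that reversed were Magi2 at E18.5 without nuclei of at least 3 other-class genes (1.071) and, after that division, Kcnd2 (0.9072), Gphn (0.9889), Hbb-bs (1.026) and Tpt1 (1.182). The cause of the shifts was not tested except for the exclusion genes. Of the other values recomputed, mostly of single genes, 199 moved by less than their interval and 193 by more.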
